A study of Mus musculus with 10 samples.

Results

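This account follows 35 genes of the p53 pathway through leukemic mouse spleens labelled Sirt1-deleted or control. The genes were taken by symbol from a named list, and all 35 were found among the 20813 genes of the deposited table. The study profiled 10 spleens of C57BL/6 mice given sublethal irradiation and then a T-cell acute lymphoblastic leukemia (T-ALL), a cancer of immature T cells, through a vein. Every leukemia, including those of the control group, carried a conditional Sirt1 allele. The titles abbreviate the treatment as TMX for the 5 samples labelled Sirt1 deleted and as VEH for the 5 labelled Control. The treatment protocol names tamoxifen, 3 mg per mouse in corn oil, and corn oil alone, so the genotype label and the treatment cannot be told apart. The labels give neither the ages of the mice, the Cre driver, nor the number of primary leukemias behind the samples, so p-values measure the spread between these samples only, which may be technical.

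The tumour suppressor p53, encoded by Trp53, is a transcription factor that is held at low levels by the ubiquitin ligase MDM2 and its partner MDM4. Stress signals such as DNA damage release it, and it then switches on genes that stop the cell cycle, repair DNA, adjust metabolism or start apoptosis, together with Mdm2 itself, which closes a feedback loop. SIRT1 is a deacetylase that removes acetyl groups from p53 among other proteins, and thymocytes and T-cell leukemias are a classical setting of p53-driven death.

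Values are normalized counts, that is, estimated reads per gene scaled by the authors to a common depth. They summed to 33.66 to 34.47 M (M, mega) per sample. Raw depth was not recoverable exactly; an approximation from the spacing of low values gave 31.4 to 38.5 M reads. Sirt1 itself did not separate the labels: it measured 1925, 1715, 1817, 1812 and 2097 under the deleted label and 1735, 1803, 1796, 1909 and 1810 under the control label (exact two-sided permutation p = 0.413). That group is therefore called "labelled Sirt1-deleted" throughout. The labels do not say which exons the conditional allele removes, and a gene-level value pools all exons, so it does not check the deletion. T-lineage markers were present in every sample: the 16 markers summed to 174328 to 200858 in the labelled Sirt1-deleted group and 201207 to 217259 in controls, and Cd3d was called higher while Cd8b1, Rag1, Tcf7 and Notch1 were called lower. Neutrophil markers moved strongly with the groups. Their sum over 14 genes was 28974 to 99982 against 9166 to 12658, with 13 of the 14 called higher and none at 0. For 14 macrophage and monocyte markers the sum was 4998 to 7379 against 2773 to 3245, with 12 called higher. Of 12 interferon response genes, 11 were called higher, with a sum of 17632 to 29551 against 8257 to 10972. None of the 8 B cell, 9 tested erythroid or 2 tested NK cell markers was called, and 2 of 7 tested stromal markers, Col1a2 and Pdgfrb, were called lower (sum of the list 4962 to 5456 against 5750 to 6645). The part of these other cells in the results below was not tested, and in bulk tissue fewer cells of a type and less RNA per cell cannot be told apart. In what follows, replicates are listed in the order 7, 8, 10, 11 and 12 for the labelled Sirt1-deleted group and 2, 3, 4, 5 and 6 for controls, which are the numbers in their titles, and errors after ± are SD over the 5 samples of a group.

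Promoter sequence was examined first because several of the genes carry a p53 response element close to their start. A response element consists of a pair of decamers, each known as the p53 half-site. RefSeq promoter windows (build GRCm38.p6, 250 bases before to 50 after a start) matched 28 of the 35 genes, with 36 windows. Ddb2, Perp, Rrm2b, Tnfrsf10b, Trp53inp1, Xpc and Zmat3 had no matched window. A window was searched for 2 adjoining half-sites with at most 3 departures from the consensus in 20 bases and both C and G cores kept. The consensus is its own reverse complement, so both strands are covered. Such a stretch occurred in 1.38% of all 32851 promoter windows and in 8 of the 36 windows here, which belong to 7 of the 28 genes. The Aen stretch was counted in both of its overlapping windows. A single exact half-site occurred in 8.36% of all windows and in 12 of the 36, which belong to 11 of the 28 genes. The 7 stretches are shown 5′ to 3′ on the strand of the gene, with the 20 matching bases in capitals, because they join the genes called higher below (Ccng1, Gtse1, Ckap2 and Aen) with others that were not (Sesn1, Tigar and Trp53).

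Ccng1, chr11:40755422-40755521, minus strand, 195 bases upstream of the start, 1 departure: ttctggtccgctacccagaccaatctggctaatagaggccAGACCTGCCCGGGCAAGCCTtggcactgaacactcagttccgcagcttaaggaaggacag
Gtse1, chr15:85859905-85859964, plus strand, beginning 1 base upstream of the start, 1 departure: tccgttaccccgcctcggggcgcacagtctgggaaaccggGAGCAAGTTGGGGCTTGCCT
Ckap2, chr8:22185963-22186062, minus strand, 203 bases upstream, 2 departures: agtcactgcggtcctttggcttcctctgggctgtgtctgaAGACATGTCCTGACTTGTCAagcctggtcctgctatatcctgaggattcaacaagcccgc
Aen, chr7:78895897-78895956, plus strand, 121 bases upstream of one annotated start and just inside the transcript of another, 3 departures: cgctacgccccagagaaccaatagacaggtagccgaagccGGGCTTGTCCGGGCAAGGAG
Sesn1, chr10:41887226-41887325, plus strand, 173 bases upstream of its downstream annotated start, 3 departures: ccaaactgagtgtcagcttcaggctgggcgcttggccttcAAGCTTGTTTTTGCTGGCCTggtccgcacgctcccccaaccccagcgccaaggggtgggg
Tigar, chr6:127109706-127109802, minus strand, 213 bases upstream, 3 departures: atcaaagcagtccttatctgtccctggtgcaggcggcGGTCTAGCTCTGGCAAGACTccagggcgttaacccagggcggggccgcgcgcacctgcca
Trp53, chr11:69580244-69580343, plus strand, 75 bases upstream, 3 departures: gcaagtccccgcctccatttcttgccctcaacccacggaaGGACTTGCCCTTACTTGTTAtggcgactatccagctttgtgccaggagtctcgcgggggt

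These stretches are matches of letters and not shown to be bound here. Many p53 sites, including those of Mdm2, lie in introns outside such windows. Among genes with a window, the longer match was present for 4 of the 16 called higher, 2 of the 10 not called and 1 of the 2 called lower.

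Across the 35 genes the dominant direction was up, while Trp53 itself went down. With limma on log2(value + 1) and Benjamini-Hochberg adjustment over the 15276 tested genes, 19 of the 35 were higher under the deleted label, against a background of 16.8% of all tested genes (54.3% of the 35). Only Trp53, Rrm2b and Ddit4 were lower (8.57%, background 19.4%). The remaining 13 were not called, so 62.9% of the 35 were called in either direction against 36.1% of all genes. The backgrounds of 16.8% higher and 19.4% lower also apply to the calls of the other lists in this text. Upper-quartile rescaling changed the background split to 20.7% higher and 14.87% lower, with 20 and 2 of the 35 called. All 35 passed the minimum mean of 10. For 16 genes every labelled Sirt1-deleted sample lay above every control (45.7%, background 11.1%), and for Trp53 and Rrm2b every one lay below (5.71%, background 12.9%). Differences of at least 1.5-fold upward were called for 10 genes, Plk2, Sesn2, Ak1, Slc19a2, Dcxr, Tnfrsf10b, Perp, Apaf1, Aen and Phlda3 (28.6%, background 7.33%). The median log2 difference over the 35 genes was 0.26, beside a median over all tested genes that was 0 to 2 decimals. The genes were proposed with earlier results of these data known, so these shares describe the list and are no test of it.

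**Figure D1:**
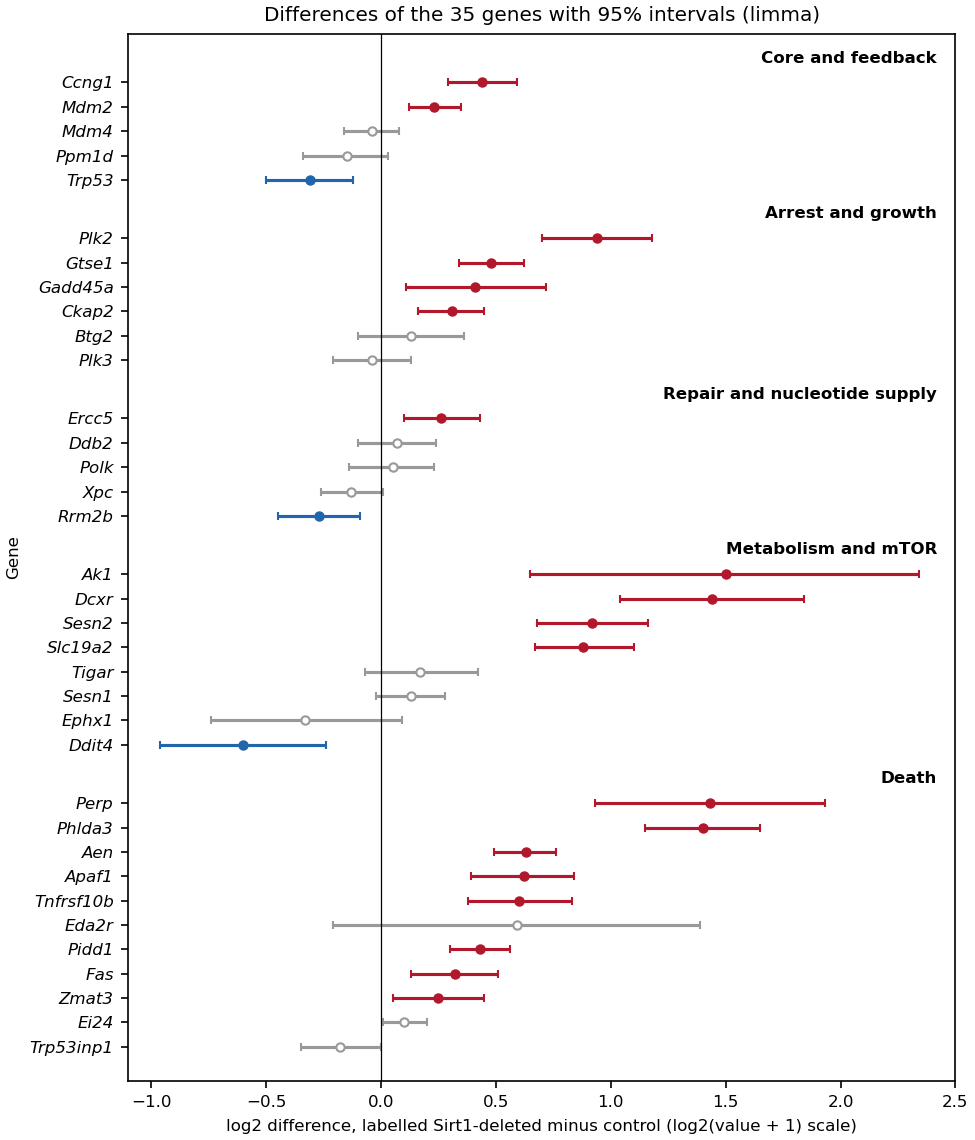
Log2 difference of each of the 35 genes (labelled Sirt1-deleted minus control, log2(value + 1) scale) with its 95% interval from limma, grouped by role; filled red points were called higher, filled blue points lower, and open grey points were not called. The death group holds 8 of the 19 higher calls and no lower call, while the repair group is split around 0. Among all tested genes, 16.8% were called higher and 19.4% lower.

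The shift was present in each labelled Sirt1-deleted sample. Relative to the control mean, the median over the 35 genes was 0.33, 0.28, 0.24, 0.26 and 0.25 on the log2 scale in these samples, and between -0.03 and 0.01 in the controls. Control values near 0 are largely built in, because each gene was set against the mean of these same controls. Replicate 10 had the lowest value of its group for 13 of the 19 genes called higher, and replicate 11 the highest for 10. The neutrophil marker sum was lowest in replicate 10, at 28974, and highest in replicate 8, at 99982. The interferon response sum was also lowest in replicate 10, at 17632, and was highest in replicate 11, at 29551. The part of either in these ranks was not tested.

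Among the 5 core and feedback genes, Trp53 fell, Mdm2 and Ccng1 rose, and Mdm4 and Ppm1d were not called. Trp53 (chr11:69580359-69591873, plus strand, GENCODE M21 on GRCm38) measured 7186, 8090, 8481, 8309 and 5831 under the deleted label and 9837, 8993, 8974, 9295 and 9382 in controls. All 5 of the former lay below the lowest control, and replicate 12 was the lowest. The log2 difference was -0.31 (SE 0.09, limma adjusted p = 0.0176), a mean of 81.5% of control. Mdm2 (chr10:117688875-117710758, minus strand) encodes the ubiquitin ligase that p53 induces and that marks p53 for degradation. It measured 3847, 3742, 3486, 3818 and 3793 against 3225, 3405, 3001, 3346 and 2952. Each labelled Sirt1-deleted sample exceeded the highest control, and Mdm2 rose by 0.23 on the log2 scale (SE 0.05, limma adjusted p = 0.00593). Ccng1 encodes cyclin G1, a p53 target that directs a phosphatase to MDM2. Its counts of 5167, 5610, 5620, 6580 and 5004 all stood above the controls at 4033, 3874, 4068, 4388 and 4189, a log2 difference of 0.44 (SE 0.07, limma adjusted p = 0.000958). Mdm4, the MDM2 partner that binds and inhibits p53, ranged from 7409 to 8981 against 7762 to 8680. Its 95% interval ran from -0.16 to 0.08. Ppm1d encodes the phosphatase WIP1, which switches off p53 and its upstream kinases, and it ranged from 1132 to 1617 against 1473 to 1625, with an interval of -0.34 to 0.03. The sign of Mdm4 (-0.04) turned under quantile normalization (0.02) and under upper-quartile rescaling (0.02), which moved the median of all genes up by 0.058.

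**Figure D2:**
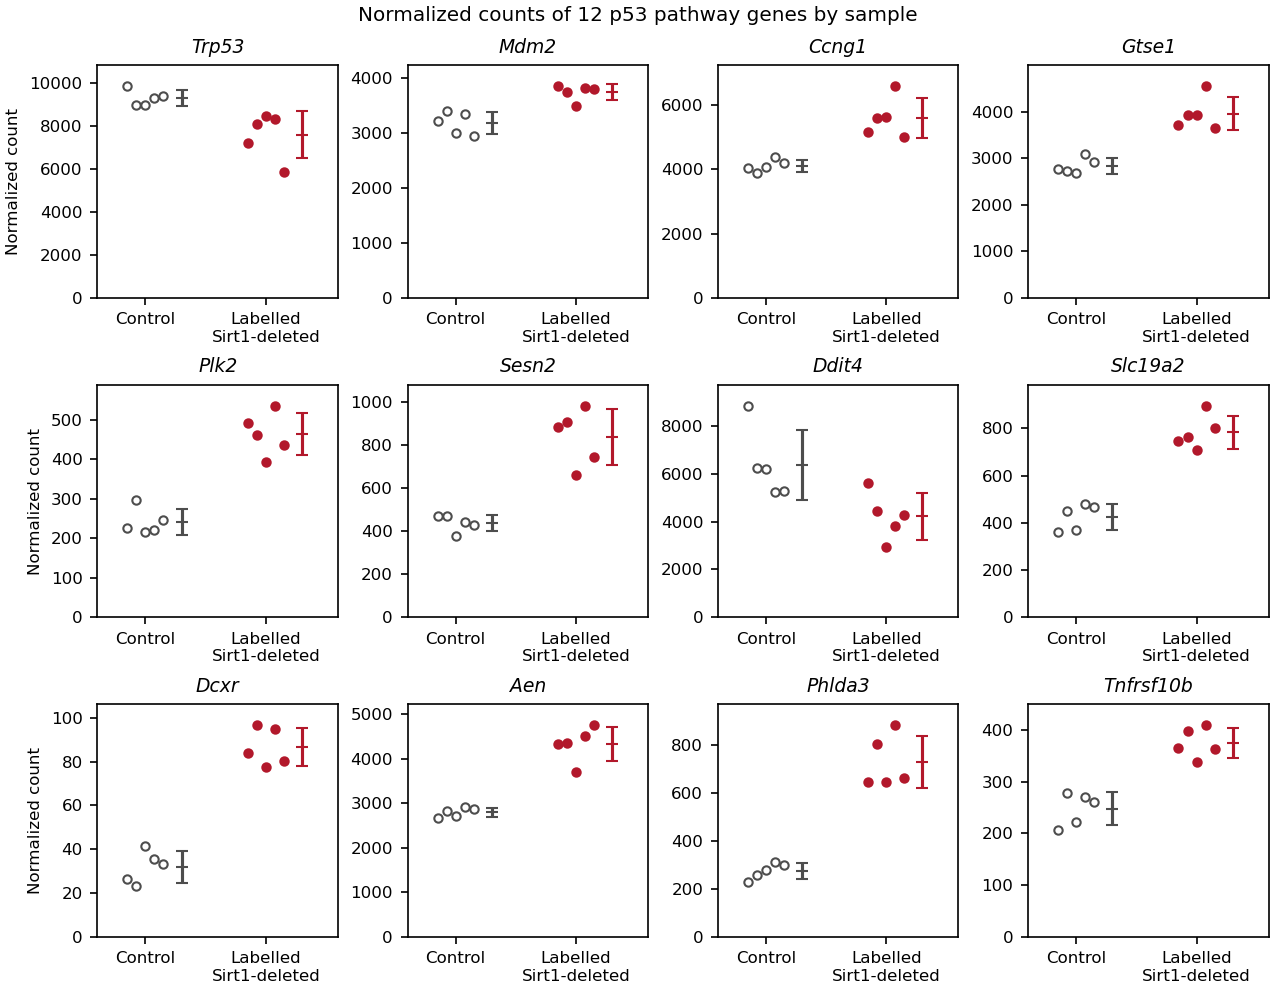
Normalized count (vertical axis, from 0) of 12 of the genes in each of the 5 control samples (open grey) and 5 labelled Sirt1-deleted samples (filled red), with mean and SD beside them. Trp53 lies lower in every labelled Sirt1-deleted sample, Ddit4 overlaps between the groups, and the other 10 genes lie higher without overlap. The 13 genes that were not called are not drawn. Other called genes are also left out, among them Gadd45a, Ercc5, Ak1 and Zmat3, whose groups overlapped. Of all 35 genes, 16 lie higher without overlap (45.7%, background 11.1%).

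The unequal movement of partners was tested directly as the log2 ratio of 2 genes within each sample, for 6 pairs chosen with earlier results of these data known. Mdm2 relative to Trp53 was -1.01 ± 0.26 under the deleted label and -1.55 ± 0.11 in controls, a shift of 0.54 (exact two-sided permutation p = 0.00794, the smallest that 5 against 5 samples allow; adjusted over the 6 pairs, 0.0119). Mdm2 relative to Mdm4 shifted by 0.27, from -1.36 ± 0.05 to -1.09 ± 0.12 (exact permutation p = 0.00794, adjusted 0.0119). Neither pair overlapped between the groups. Mdm2 lay above and Trp53 below every control in each labelled Sirt1-deleted sample, so their ratio had to separate. Its p-value therefore adds nothing to the results of the 2 single genes. A ratio within a sample shows unequal change of the 2 genes, and multiplying a sample by 1 factor leaves it the same apart from the pseudocount. Quantile normalization is no such factor.

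**Figure D3:**
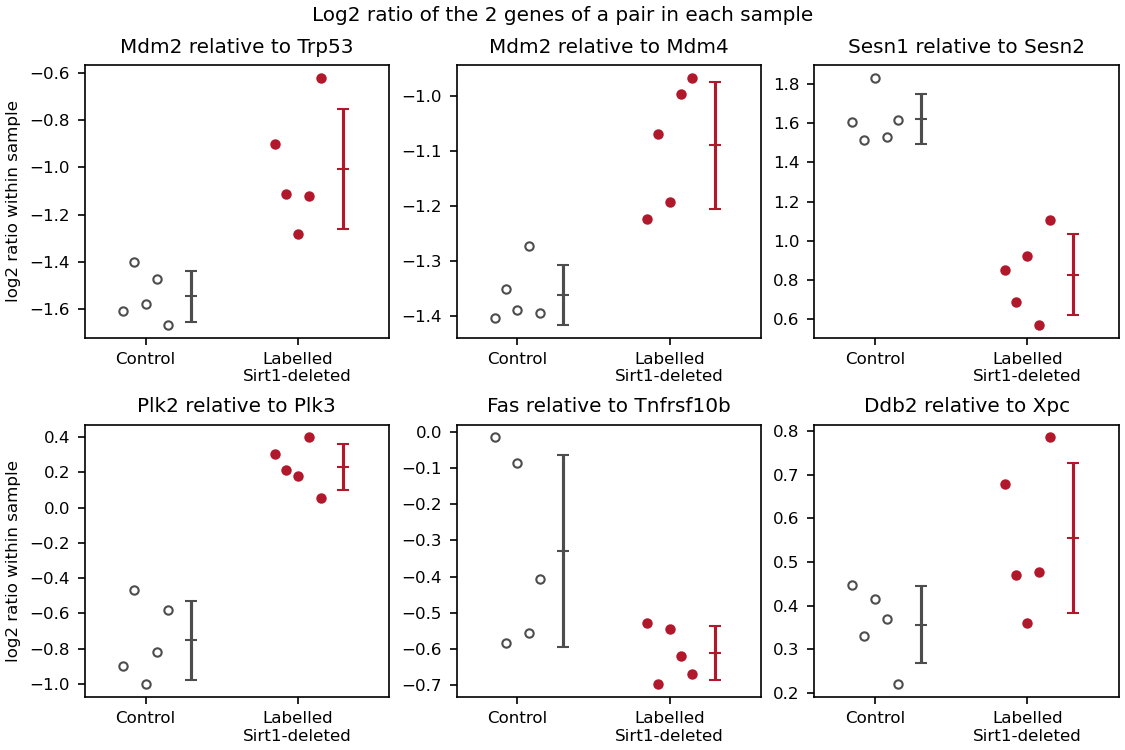
Log2 ratio of the first to the second gene of each pair within each sample (vertical axis, log2 units; each panel has its own range), for 5 control samples (open grey) and 5 labelled Sirt1-deleted samples (filled red), with mean and SD. The groups are fully apart for Mdm2 relative to Trp53 and to Mdm4, Sesn1 relative to Sesn2 and Plk2 relative to Plk3, and overlap for the other 2 pairs.

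Of the 6 arrest and growth genes, 4 were called higher and none lower, with a median log2 difference of 0.36. The shares of all tested genes were 16.8% higher and 19.4% lower. Plk2 (chr13:110395046-110400844, plus strand) encodes a polo-like kinase that p53 induces and that acts in early cell cycle stages and checkpoint arrest. It measured 492, 462, 394, 535 and 435 against 227, 296, 216, 220 and 247 in controls. The lowest of the former stood well above the highest of the latter, and the mean was 1.92-fold higher (log2 difference 0.94, SE 0.11, limma adjusted p = 0.000266). Its relative Plk3, another stress-responsive polo-like kinase, ranged from 348 to 419 against 370 to 434 and was not called (interval -0.21 to 0.13). Plk2 relative to Plk3 shifted by 0.98, from -0.75 ± 0.22 to 0.23 ± 0.13 (exact permutation p = 0.00794, adjusted over the pairs 0.0119).

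Gtse1 and Ckap2, which are expressed mainly in dividing cells, rose. Gtse1 encodes a protein of the G2 and S phases that binds p53 and moves it out of the nucleus. Counts were 3715, 3931, 3930, 4542 and 3647 against 2766, 2727, 2681, 3098 and 2915, without overlap (log2 difference 0.48, SE 0.06, limma adjusted p = 0.000529). Ckap2, which encodes a spindle protein linked to p53 activity, measured 2684, 2703, 2828, 2730 and 3265 against 2150, 2230, 2564, 2238 and 2298 (log2 difference 0.31, SE 0.07, limma adjusted p = 0.00448). Replicate 12 was its highest sample. In contrast, of 22 listed genes of the G2 and M phases 11 were lower and 1, Birc5, was higher (0.23), with a median log2 difference of -0.25. The sum of the 22 was 146934 to 183600 against 177553 to 198519. No test compared Gtse1 or Ckap2 with that list.

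Gadd45a, a stress sensor that promotes growth arrest and repair, measured 854, 583, 579, 903 and 688 against 524, 434, 631, 502 and 593. Its groups overlapped, and the call was narrow (log2 difference 0.41, SE 0.14, limma adjusted p = 0.0371). It was lost on leaving out any 1 of 6 samples: replicates 7, 11 and 12 of the labelled Sirt1-deleted group and 2, 3 and 5 of the controls, with differences of 0.33 to 0.49 over all 10 such fits. It was also lost in limma without trend (adjusted p = 0.0654) and with the exact rank-sum test (adjusted p = 0.184). In these data the rank-sum test called only genes without overlap between the groups, so its results here and below restate that overlap. Btg2, an antiproliferative adaptor of messenger RNA decay, ranged from 4891 to 7646 against 5423 to 6514 and was not called (interval -0.10 to 0.36). Its lowest value was in replicate 10, without which it was called higher (0.23, limma adjusted p = 0.0277). Plk2, Plk3, Btg2 and Gadd45a can all be induced by signals other than p53. Of 13 immediate early and heat shock genes, Jun and Hspa1b were higher and Fosb, Egr1, Egr2 and Nr4a1 were lower, with a list median of -0.07. The part of such signals in the values of Plk2, Plk3, Btg2 and Gadd45a was not tested. Genes named in this text that are not among the 35, other than Sirt1, Cdkn1a and Bax, were singled out after their values were seen.

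Of the 5 repair and nucleotide supply genes, 1 was called higher and 1 lower, with differences from -0.27 to 0.26 and a median of 0.05. These counts are close to the shares of all tested genes, 16.8% higher and 19.4% lower, and do not set the group apart. Ercc5, the XPG nuclease of nucleotide excision repair, measured 1537, 1408, 1210, 1378 and 1449 against 1072, 1198, 1295, 1065 and 1179. Replicate 10 fell within the range of the controls while the other 4 were above it, and the log2 difference was 0.26 (SE 0.08, limma adjusted p = 0.0172). The exact rank-sum test did not call Ercc5 (adjusted p = 0.0512). Rrm2b encodes the p53-inducible ribonucleotide reductase subunit that supplies deoxynucleotides outside S phase. It went the other way, at 392, 429, 480, 433 and 435 against 613, 488, 522, 512 and 487. The groups did not overlap, though the highest labelled Sirt1-deleted value of 480 lay close to the lowest control of 487 (log2 difference -0.27, SE 0.08, limma adjusted p = 0.0251). Its call was lost without control replicate 2 (-0.21, limma adjusted p = 0.0623), without labelled Sirt1-deleted replicate 7 (-0.23, limma adjusted p = 0.0643) and after upper-quartile rescaling (-0.21, limma adjusted p = 0.0614).

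The damage recognition genes Ddb2 and Xpc were not called. Ddb2, which finds ultraviolet lesions, ranged from 1219 to 1613 against 1280 to 1414 (interval -0.10 to 0.24), and Xpc, which starts global repair, from 917 to 1092 against 1037 to 1121 (interval -0.26 to 0.01). Their ratio shifted by 0.20 (exact permutation p = 0.0476, adjusted 0.0476), but the groups overlapped and the call was lost in 9 of the 10 fits that left out 1 sample, all but that without labelled Sirt1-deleted replicate 10. Polk, a translesion DNA polymerase, ranged from 747 to 933 against 697 to 888, with an interval of -0.14 to 0.23.

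The 8 metabolic and mTOR-related genes held both large rises and the largest fall among the 35, with a median of 0.53. Sesn2 (chr4:132492032-132510501, minus strand), a sestrin that restrains mTORC1 and oxidative stress, measured 882, 907, 660, 980 and 742 under the deleted label and 468, 469, 375, 442 and 430 in controls. All 5 exceeded the highest control, with a mean 1.91-fold higher (log2 difference 0.92, SE 0.11, limma adjusted p = 0.000271). Sesn1, the sestrin best known as a p53 target, ranged from 1250 to 1600 against 1277 to 1427 and was not called (interval -0.02 to 0.28). Without replicate 10, its lowest sample, Sesn1 passed at 0.19 (limma adjusted p = 0.0201), as it did with sample weights (0.17, limma adjusted p = 0.0369). Sesn1 relative to Sesn2 shifted by -0.79, from 1.62 ± 0.13 to 0.83 ± 0.21, without overlap (exact permutation p = 0.00794, adjusted 0.0119). Sesn2 is also known as a target of ATF4, the factor of the integrated stress response. Of 10 genes of that response, Atf4 (0.42), Ddit3 (0.38) and Nupr1 (1.62) were called higher and Phgdh (-0.26) lower; 6 of the 10 were negative in sign, and the list median was -0.07. Their part in the rise of Sesn2 was not tested.

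Slc19a2 encodes a thiamine transporter and is a p53 target. Its counts were 745, 764, 710, 895 and 800 against 362, 451, 369, 479 and 467, so that the groups were fully apart (1.84-fold, log2 difference 0.88, SE 0.10, limma adjusted p = 0.000183). Dcxr, the dicarbonyl and L-xylulose reductase, was low but clearly apart, at 84.1, 96.6, 77.4, 94.8 and 80.4 against 26.3, 23.0, 41.3, 35.6 and 33.1 (2.72-fold, log2 difference 1.44, SE 0.18, limma adjusted p = 0.000404). Ak1, an adenylate kinase, lay near the filter, at 19.5, 26.6, 12.5, 29.7 and 36.8 against 12.5, 9.99, 11.6, 4.22 and 4.11. Replicate 10 and control replicate 2 overlapped at the same printed value. The log2 difference of Ak1 was 1.5 (SE 0.39, limma adjusted p = 0.011), and its call ended with the exact rank-sum test (adjusted p = 0.0512). Tigar, a phosphatase that lowers glycolytic flux, ranged from 372 to 471 against 325 to 487 and was not called (interval -0.07 to 0.42).

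Ddit4 (chr10:59949669-59951834, minus strand) encodes REDD1, an inhibitor of mTORC1. It measured 5639, 4440, 2933, 3803 and 4278 under the deleted label and 8849, 6256, 6223, 5231 and 5271 in controls. Replicate 7 overlapped with 2 of the controls, and the mean was 66.3% of control (log2 difference -0.60, SE 0.17, limma adjusted p = 0.0154). The exact rank-sum test did not call it (adjusted p = 0.0823). Ddit4 also responds to low oxygen and to glucocorticoids. Among 10 hypoxia-responsive genes, Bnip3, Pdk1, Egln3, Ankrd37 and Ndrg1 were called lower and none higher, with a median of -0.50. Among 6 tested glucocorticoid-responsive genes, Fkbp5 (-0.42) and Per1 (-0.57) were called lower, with a median of -0.36. The part of either response in the fall of Ddit4 was not tested. Ephx1, the microsomal epoxide hydrolase, measured 548, 563, 1164, 528 and 557 against 948, 795, 873, 697 and 716. Replicates 7, 8, 11 and 12 lay below every control and replicate 10 above every control, so it was not called (interval -0.74 to 0.09). Without that sample it was called lower (-0.54, limma adjusted p = 0.00109), and with sample weights as well (-0.39, limma adjusted p = 0.045).

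Of the 11 genes of the death group, 8 were called higher and none lower, with a median log2 difference of 0.59. Of all tested genes, 16.8% were called higher and 19.4% lower. No test compared the role groups. Phlda3 (chr1:135766119-135769136, plus strand), a p53 target that competes with AKT for membrane lipids, measured 647, 805, 645, 881 and 661 against 228, 257, 278, 312 and 300. Each labelled Sirt1-deleted sample had more than the highest control, with a mean 2.65-fold higher (log2 difference 1.40, SE 0.12, limma adjusted p = 3.52e-05). Perp, a membrane protein that p53 induces during apoptosis, was low, at 26.0, 39.2, 38.7, 26.5 and 30.2 against 9.62, 10.6, 12.4, 9.87 and 13.8. Its groups did not overlap (2.86-fold, log2 difference 1.43, SE 0.23, limma adjusted p = 0.00115). Aen encodes a nuclease that p53 induces and that digests DNA during apoptosis. It measured 4316, 4349, 3696, 4516 and 4743 against 2666, 2817, 2701, 2917 and 2862, again fully apart (1.55-fold, log2 difference 0.63, SE 0.06, limma adjusted p = 0.000104).

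Apaf1, the scaffold of the apoptosome that activates caspase 9, measured 2833, 2537, 2395, 2527 and 3628 against 1800, 1927, 1552, 1916 and 1788. All labelled Sirt1-deleted samples were above the controls, replicate 12 furthest (log2 difference 0.62, SE 0.10, limma adjusted p = 0.00134). Pidd1, the p53-induced death domain protein of the PIDDosome, measured 3193, 2969, 2865, 3215 and 3387 against 2250, 2319, 2165, 2518 and 2352, without overlap (log2 difference 0.43, SE 0.06, limma adjusted p = 0.000535).

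Both death receptors of the ligands FasL and TRAIL rose. Tnfrsf10b, the mouse TRAIL receptor, measured 365, 398, 339, 409 and 363 against 206, 279, 223, 271 and 260, fully apart (1.51-fold, log2 difference 0.60, SE 0.10, limma adjusted p = 0.00158). Fas measured 253, 245, 232, 266 and 228 against 204, 186, 210, 184 and 196, also without overlap but by a smaller margin (1.25-fold, log2 difference 0.32, SE 0.09, limma adjusted p = 0.0153). Fas relative to Tnfrsf10b shifted by -0.28 (exact permutation p = 0.0476, adjusted 0.0476). That difference between the receptors was lost in 8 of the 10 fits without 1 sample, all but those without control replicates 3 and 5. Eda2r, a receptor of ectodysplasin A2, was near the filter, at 12.3 to 25.4 against 5.68 to 25.0. It was not called (interval -0.21 to 1.39).

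Zmat3, an RNA-binding p53 target, ranged from 1375 to 2016 against 1305 to 1451 and barely passed (log2 difference 0.25, SE 0.09, limma adjusted p = 0.0484). Replicate 7 overlapped with the controls, and the call was lost under 5 of 11 processing alternatives and in 8 of the 10 fits without 1 sample. Only the fits without labelled Sirt1-deleted replicates 7 and 12 kept it. Ei24, an endoplasmic reticulum protein induced by p53, lay at 2961 to 3187 against 2727 to 2941. Its groups did not overlap, yet limma did not call it (log2 difference 0.10, SE 0.04, adjusted p = 0.0855), and it was called with upper-quartile rescaling, quantile normalization, totals without the 10 highest genes and the rank-sum test (adjusted p = 0.00885, 0.00956, 0.0454 and 0.0331). Trp53inp1, a stress-induced p53 cofactor, ranged from 8289 to 10385 against 9990 to 12658 and was not called (log2 difference -0.18, limma adjusted p = 0.103).

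The wider pathway was described with 2 further lists. For both lists the shares of all tested genes were 16.8% called higher and 19.4% called lower. Of 27 other p53 targets, 10 were called higher and 4 lower, among the latter Trp53i11, Crot and Ptpn14, with a median of 0.23. Cdkn1a, the cell cycle inhibitor p21, measured 888, 1001, 992, 1542 and 1117 against 276, 307, 242, 326 and 335 (log2 difference 1.88). The apoptosis effector Bax measured 7325, 6942, 6461, 7463 and 7453 against 4024, 4488, 4892, 4712 and 5072 (log2 difference 0.62). Both were fully apart between the groups. Of 22 tested upstream regulators and cofactors of p53, 7 were lower, 2 were higher (Rpl5 at 0.23 and Crebbp at 1.27) and 13 were not called, with a median of -0.11. The lower genes included the kinases Hipk2 (-0.60), Chek1 (-0.28) and Prkdc (-0.20), the deubiquitinase Usp7 (-0.25) and the ubiquitin ligases Cop1 (-0.31) and Huwe1 (-0.27). Atm, Atr and Chek2 were not called.

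**Figure D4:**
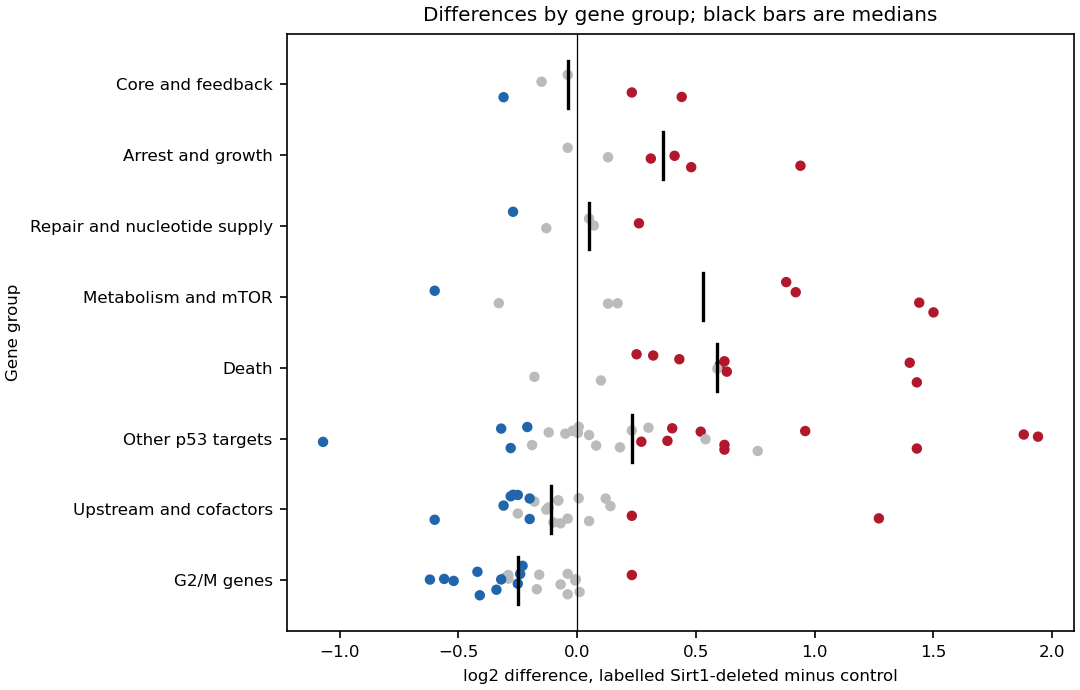
Log2 difference (labelled Sirt1-deleted minus control) of each tested gene in the 5 role groups of the 35 genes and in 3 further lists; red points were called higher, blue lower, grey not called, and black bars are the medians. Medians run from 0.59 in the death group down to -0.25 for the G2/M genes; vertical scatter within a row has no meaning.

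Transcripts that share sequence may limit some of these values, since reads from shared stretches are divided between genes by estimation. In GENCODE M21, the share of a gene's 31-base words found in transcripts of another gene was 20.64% for Ddb2 (most with the overlapping Acp2), 16.98% for Gadd45a (the overlapping E230016M11Rik), 14.4% for Rrm2b (Gm49085), 13.79% for Mdm4 (Mdm4-ps), 11.4% for Tnfrsf10b, 10.27% for Ckap2 and 10.16% for Trp53 (Trp53-ps). It was below 10% for the other genes. Words were matched on either strand, although the libraries were strand-specific, and the annotation used by the authors is not given. Whether reads were shared in these data was not tested.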

How the data were processed

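RNA from 10 leukemic spleen suspensions, depleted of red cells, was sequenced from strand-specific libraries, per the labels' protocols. The deposited values are a normalized signal, estimated counts per gene that the authors scaled with DESeq, as they named the table. The authors' tools kallisto 0.44.0 and DESeq and the build mm10 appear in the submitters' processing notes, while annotation and filters are not given in the sources used here. Whole reads could not be recovered (68.3% to 74.3% of low values came within 0.1 reads of one), so no count model was used. Log2(value + 1) of 15276 genes with a mean of at least 10 was fitted with limma 3.58.1 (R 4.3.3, group as the only term, intensity trend), with Benjamini-Hochberg adjustment over these genes at 0.05; the script was tested on simulated data. Pair ratios were tested by exact permutation. No sample pair held identical values (0 of 45), and no batch label was given. The columns include 0 from outside the 10 samples. The 35 genes, the lists and the pairs were chosen with earlier results of these data known; all 35 are named, with Sirt1, Cdkn1a and Bax, and other lists (p53 targets, upstream regulators, G2/M, immediate early, ATF4, hypoxia, glucocorticoid, interferon and cell type markers) are given by counts, and the values of 1 listed gene are not reported here. Gene positions are from GENCODE M21 and promoter sequences from RefSeq on GRCm38.p6. Other settings tried were a pseudocount of 0.1 or 5, a mean filter of 1, of 50 or absent, 3 scalings (upper-quartile, quantile, totals without the 10 highest genes), limma with sample weights or with no trend, stricter thresholds, exact rank-sum testing, and omission of each sample.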

Additional observations from a re-analysis of the deposited data

Results flagged for a closer look

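In 70 sets of 5 samples (35 genes in 2 groups), the distance of the highest or lowest sample to the next one, as a ratio of the whole range, exceeded 0.71 in 5 of them. Chance at 1 in 20 gives 3.5. Labelled Sirt1-deleted replicate 10 was far above the rest for Ephx1, at 1164 against 528 to 563 (ratio 0.944), and below the rest for Trp53inp1, at 8289 against 9838 to 10385 (ratio 0.739). Labelled Sirt1-deleted replicate 12 was the highest for Ckap2, at 3265 against 2684 to 2828 (ratio 0.752). Control replicate 2 was the highest for both Ddit4, at 8849 against 5231 to 6256 (ratio 0.717), and Rrm2b, at 613 against 487 to 522 (ratio 0.722). These are 2 of the 3 genes called lower; without that sample Ddit4 stayed lower and Rrm2b was no longer called. The cause was not tested for any of them.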

How the results depend on the processing

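Of the 35 genes, 16 to 20 were called higher and 2 to 4 lower under every scaling, filter, pseudocount, test and left-out sample tried, while the share of all tested genes ran from 11.07% to 20.7% higher and from 12.88% to 25.47% lower. The 1.5-fold requirement gave 10 and 1 (all genes 7.33% and 2.58%), and an adjusted p under 0.01 gave 14 higher and 0 lower in limma (all genes 8.69% and 9.96%), beside 4 lower at an unadjusted p under 0.05 and 2 by the exact rank-sum test. The stricter thresholds aside, there were 11 alternatives of scaling, filter, pseudocount and test. Of the 19 genes called higher, 15 kept their call under all of these (10 for Perp) and in all 10 fits without 1 sample. The exceptions were Gadd45a, Ercc5, Ak1 and Zmat3, of which Ercc5 and Ak1 lost their call only in the exact rank-sum test. Of the 3 called lower, Trp53 alone kept its call in the same settings. The median over the 35 genes was 0.32 with upper-quartile rescaling, which moved the median of all genes to 0.058, and 0.25 to 0.31 without 1 sample. The same shift of all genes took Mdm4 and Plk3, near 0 and not called, to 0.02 each, and quantile normalization took Mdm4 to 0.02; without 1 sample Plk3 ran from -0.07 to 0.0013 and Polk from -0.0015 to 0.09. Shifts of the Ddb2 to Xpc ratio ran from 0.14 to 0.25 and of the Fas to Tnfrsf10b ratio from -0.35 to -0.20 without 1 sample, most of them short of the threshold; quantile normalization moved the latter to -0.33, and the other 4 pairs kept their calls under every alternative. Ak1 and Eda2r have low values, and the minimum mean of 50 removed them together with Perp. No paired analysis was possible because no number in the titles occurs in both groups.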
